A study of Mus musculus with 12 samples.

Results

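The 8 genes described here are the coactivators YAP (Yap1) and TAZ (Wwtr1), the DNA-binding factor TEAD1 (Tead1), and 5 genes known as their targets: Ccn2 (also called Ctgf), Ccn1 (also called Cyr61), Ankrd1, Amotl2 and Lats2. They were chosen by gene symbol, and 8 of 8 were found among the 12081 genes of the expression table. RNA was sequenced from mouse primary hepatic stellate cells, liver pericytes that store vitamin A and turn into contractile, matrix-producing myofibroblasts when activated. All 4 groups, of 3 libraries each, came from Hk2 fl/fl mice, in which Cre recombinase can delete Hk2, which encodes the first enzyme of glycolysis, hexokinase 2. Freshly isolated, untreated cells stood for the quiescent state (QS). Cells kept for 6 days in culture medium with 10% serum and 1000 mg/L glucose after Ad-GFP, an adenovirus expressing eGFP, were the activated controls (ACT). Cells given Ad-Cre, a virus expressing Cre fused to eGFP, and cultured likewise were the Hk2-deleted group (KO), and a further Ad-Cre group received 10 mM lactate for 24 h (LAC). QS cells had neither culture nor virus, so both differ between QS and the other groups and cannot be told apart. Cre came from the virus and not from a stellate cell promoter, so deletion was not limited to 1 cell type by design.

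YAP and TAZ do not bind DNA themselves. In the nucleus they bind TEAD factors and switch on genes of growth, matrix and cytoskeleton, and stiff surfaces or stretched actin fibres favour their entry. The Hippo kinases MST and LATS phosphorylate YAP and TAZ, which keeps them in the cytoplasm or leads to their breakdown, and LATS2 and AMOTL2 are at once targets and inhibitors, which closes a feedback loop. In stellate cells YAP is known for its activation early in culture and in fibrosis. This control acts largely on protein, which was not measured here: all values below are RNA.

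The letters that TEAD factors are known to bind are shown first, since they are the feature the 8 genes can share in their promoters. The RefSeq promoter table (build GRCm38.p6, the assembly also called mm10) held a window for 6 of the 8 genes, each running from 250 bases before to 50 bases after the annotated start. The motif searched was GGAATG on the gene's strand or CATTCC, its reverse complement. It was found in the windows of 6 of 6 genes, and 14.2% of the 9634 table genes with a window held it (14.7% of all 32851 windows of that length). These are 30-base stretches, 5′ to 3′ on the gene's strand, with the motif in capitals:
Yap1: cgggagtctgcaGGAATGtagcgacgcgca
Wwtr1: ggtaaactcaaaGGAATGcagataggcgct
Ccn1: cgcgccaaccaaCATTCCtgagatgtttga
Ankrd1, distal: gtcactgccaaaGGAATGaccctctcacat
Ankrd1, proximal: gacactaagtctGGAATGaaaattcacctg
Amotl2: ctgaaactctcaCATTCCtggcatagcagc
Lats2: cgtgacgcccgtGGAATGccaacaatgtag

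The Yap1 stretch lies at chr9:8004720-8004749 on the minus strand, with the motif 141 bases before the start. The Wwtr1 stretch lies at chr3:57576029-57576058 on the minus strand, with the motif 136 bases before 1 annotated start and 170 bases before another. Ankrd1 alone held it 2 times, at chr19:36120037-36120066 and chr19:36119950-36119979 on the minus strand, 210 and 123 bases before the start. Among table genes with a window, 1.25% held it 2 or more times. The Ccn1 stretch (chr3:145650071-145650100, minus strand) and the Amotl2 stretch (chr9:102717727-102717756, plus strand) carry the motif on the opposite strand, 103 and 65 bases before the start. In Lats2 (chr14:57746102-57746131, minus strand) it begins 5 bases after the start. Of the other pathway genes with a window, 3 of 11 further YAP and TAZ targets and 6 of 18 upstream Hippo genes held it. So did 4 of 6 genes of the TEAD and Vgll families, including Vgll genes not in the expression table. It was also held by 4 of 10 genes of SRF, MRTF and their contractile targets, a separate list described below. The 1 other CCN family gene with a window did not hold it. The motif was thus not limited to the lists of the YAP pathway. Distances are from the RefSeq starts. The GENCODE gene spans given below begin further upstream for Ankrd1, Amotl2 and Lats2, so that these sites lie inside those spans. A match of 6 letters is a description of the sequence and not a measured binding site.

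**Figure D1:**
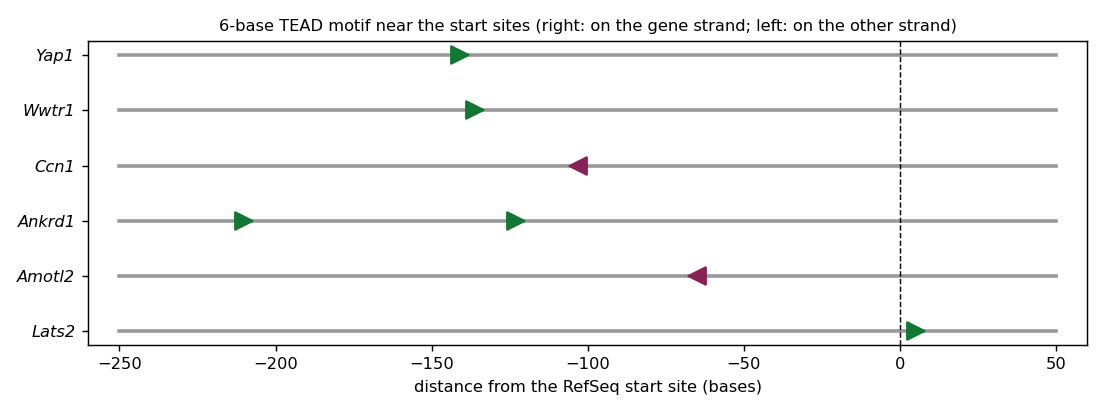
Position of the 6-base TEAD motif relative to the RefSeq start site (x axis, in bases) in the promoter windows of 6 genes (rows). Triangles that point right are on the gene's strand and those that point left on the other. Of the 7 matches, 6 lie before the start and that of Lats2 lies 5 bases after it.

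The Ccn1 promoter is shown at greater length because Ccn1 is a target with changes in every comparison below. The 250 bases before its start (chr3:145649986-145650235, minus strand) overlap no annotated exon, and the motif is again in capitals:
Ccn1 promoter: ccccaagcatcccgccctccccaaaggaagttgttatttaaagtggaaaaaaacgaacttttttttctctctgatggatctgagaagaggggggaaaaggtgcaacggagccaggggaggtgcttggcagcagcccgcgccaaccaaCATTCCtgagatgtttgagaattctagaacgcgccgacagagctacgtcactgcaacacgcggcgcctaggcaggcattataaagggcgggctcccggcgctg

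Estimated reads in the listed genes ran from 4.35 to 14.0 M per library (M: megareads), and 3 reads corresponded to 0.212 to 0.72 CPM. CPM here means the authors' read counts scaled to library size, with a further scaling per library. Behind the 8 genes stood at least 476 reads in every library, except for Ankrd1 in QS, where the lowest was 42 reads and counting error alone gives a coefficient of variation of 15.4%. Hk2 ranged from 66.7 to 73.5 CPM in QS and 180.5 to 182 CPM in ACT, against 10.7 to 13.7 CPM in KO and 18.7 to 19.7 CPM in LAC, so all libraries given Cre lay below all others. The stellate markers Des and Pdgfrb were found in every library, with Des from 20.2 to 27.3 CPM in QS and from 171 CPM upward in the cultured groups. These 2 were the only stellate markers that rose from QS to ACT, and the other 10 of 12 fell. The 3 libraries of each group were further apart than counting noise gives (chi-square per gene 2.25 to 4.72) and were kept separate. Whether they stem from different animals or cultures is not in the labels, and the p-values therefore cover only the spread among these libraries, which may be technical.

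The groups also differed in markers of other liver cells, which bears on every comparison in bulk RNA: fewer cells of a type and less RNA per cell cannot be told apart. The summed level of 17 macrophage markers, led by Lyz2 and Itgam, ran in QS from 4275 to 4366 CPM, in ACT from 13610 to 13970 CPM, in KO from 140.0 to 149.8 CPM and in LAC from 3220 to 3268 CPM. Lyz2 alone made up most of the ACT sum, with means of 513 CPM in QS and 9350 CPM in ACT. Adgre1 was at 322 CPM in QS and 364 CPM in ACT, and of the 17 markers 9 rose and 5 fell between these groups. That of 15 endothelial markers, led by Cdh5 and Stab2, ran in QS from 14320 to 14770 CPM, in ACT from 593 to 609 CPM, in KO from 6447 to 7211 CPM and in LAC from 3385 to 3553 CPM. KO thus held far fewer macrophage transcripts and more endothelial transcripts than ACT, with LAC between them. Hepatocyte markers (12 of 13 in the table, led by Alb and Ass1) summed to 2269 to 2346 CPM for QS, 136 to 146 CPM for ACT, 545 to 583 CPM for KO and 259 to 269 CPM for LAC. Ass1 alone made up most of this sum in ACT (mean 114 CPM) and LAC (263 CPM), but not in KO (233 CPM). Alb was at 1128 CPM for QS, 10.6 CPM for ACT, 157 CPM for KO and 0.601 CPM for LAC. Markers at 0 in a whole group were Timd4 of the macrophage list and Cyp2e1, Cps1 and Hnf4a of the hepatocyte list, all of them in LAC. The 12 stellate markers, led by Dcn and Reln, were highest in QS (5828 to 6005 CPM) and lay at 1195 to 1228 CPM for ACT, 1474 to 1603 CPM for KO and 1652 to 1731 CPM for LAC. Mesothelial and biliary markers (11 of 12, led by Wt1 and Krt18) summed to 69.0 to 73.7 CPM for QS, 250.2 to 269.5 CPM for ACT, 71.9 to 72.9 CPM for KO and 102 to 103 CPM for LAC. Portal fibroblast and smooth muscle markers (4 of 8, led by Fbln2 and Myh11) summed to 17.8 to 32.9 CPM for QS, 1185 to 1214 CPM for ACT, 374 to 389.8 CPM for KO and 787 to 818 CPM for LAC, and of 12 lymphocyte and neutrophil markers only S100a8 was in the table, at most at 4.45 CPM. The part of any of these in the results below was not tested.

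Between QS and ACT the coactivator genes moved in opposite directions, with a small rise of Yap1 and a larger fall of Wwtr1. Yap1, which encodes YAP (chr9:7931999-8004596), was at 110.5, 114 and 112.5 CPM in QS, 135, 129 and 137 CPM in ACT, 166.5, 166 and 170.2 CPM in KO, and 189.4, 175 and 189 CPM in LAC. No library of a group overlapped with another group, and the order was QS below ACT below KO below LAC. Yap1 rose by 0.25 ± 0.0415 (log2 fold change ± SE, on log2(CPM + 1) throughout) from QS to ACT (limma with Benjamini-Hochberg adjustment over all genes, as for every adjusted p here, adjusted p = 8.75e-05). KO lay above ACT by a further 0.32 ± 0.0415 (adjusted p = 1.12e-05).

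Wwtr1, which encodes TAZ (chr3:57455649-57575910), went the other way on activation. It was at 299.7, 286 and 300.5 CPM in QS, 111, 110.0 and 104 CPM in ACT, 229.8, 228 and 239 CPM in KO, and 217, 208 and 214.5 CPM in LAC. The groups did not overlap, in the order QS above KO above LAC above ACT. The ACT level was 36.7% of the QS level (log2 fold change -1.44 ± 0.0391, adjusted p = 2.69e-13), and KO stood 2.14-fold above ACT (1.09 ± 0.0391, adjusted p = 1.01e-11). The summed endothelial markers and the summed hepatocyte markers stood in the same order of groups as Wwtr1. The summed stellate markers did not, although the stellate marker Reln alone did. Between KO and LAC the endothelial sum fell from a mean of 6848 to 3443 CPM and the hepatocyte sum from 564 to 264 CPM. Wwtr1 in LAC was at 91.7% of its KO level. The mean sum of macrophage markers rose from 146 to 3242 CPM between the same groups. The part of any of these lists in the level of Wwtr1 was not tested.

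Per kilobase of transcript, a scale on which genes can be compared, the ratio of the Wwtr1 level to the Yap1 level was 2.34 ± 0.0969 (SD, n = 3) in QS and 0.72 ± 0.0428 in ACT. It was 1.23 ± 0.0154 in KO and 1.03 ± 0.0255 in LAC. Wwtr1 RNA thus exceeded Yap1 RNA in QS, lay below it in ACT, and was close to it in LAC, where the ratio ran from 1.01 to 1.06. The lengths used, those of the longest coding transcript, were 4171 bases for Yap1 and 4697 bases for Wwtr1, and the isoforms present were not determined.

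**Figure D2:**
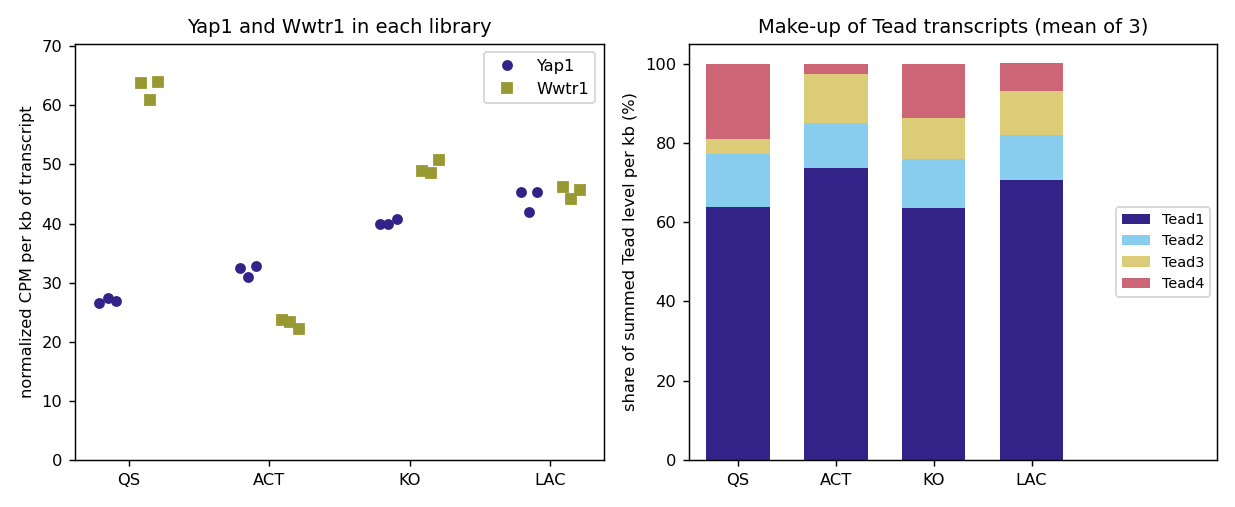
Left, Yap1 (circles) and Wwtr1 (squares) in each library, as normalized CPM per kb of transcript on the y axis, by group on the x axis. Right, the mean share in percent of the summed Tead level per kb held by each of the 4 Tead genes. Wwtr1 lies above Yap1 in QS and KO and below it in ACT, and Tead1 holds the largest share in every group.

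Tead1, the DNA-binding partner (chr7:112679318-112906807), was at 143.1, 143 and 148 CPM in QS and 412, 416 and 420.0 CPM in ACT. It was at 340.4, 307.5 and 307 CPM in KO and 413, 408 and 403 CPM in LAC. ACT and LAC overlapped at the top, KO lay below both, and QS was lowest. Tead1 rose 2.88-fold on activation (1.52 ± 0.0398, adjusted p = 1.8e-13) and in KO was at 76.5% of the ACT level (-0.39 ± 0.0398, adjusted p = 1.13e-06).

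The 4 mammalian TEAD genes share their DNA-binding domain, and Tead1 held the largest share of their summed level per kilobase in all groups, with a mean in QS of 63.9%, in ACT of 73.6%, in KO of 63.5% and in LAC of 70.7%. Tead4 was lower on activation and higher in KO: it was at 11.7, 13.9 and 14.4 CPM in QS, 4.38, 3.99 and 4.66 CPM in ACT, 21.1, 21.6 and 20.1 CPM in KO, and 13.1, 12.5 and 11.7 CPM in LAC. KO thus had the highest Tead4 of the 4 groups, and QS and LAC overlapped. Its change was -1.42 ± 0.116 from QS to ACT (adjusted p = 5.57e-08) and 2.04 ± 0.116 from ACT to KO (adjusted p = 1.71e-09). The Tead4 share of the summed level went from 19.0% in QS to 2.49% in ACT, and was 13.5% for KO and 6.98% for LAC.

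Tead2 and Tead3 rose on activation, Tead2 from 10.5 ± 3.74 CPM to 22.1 ± 0.686 CPM (adjusted p = 1.97e-04) and Tead3 from 2.47 ± 1.25 CPM to 19.5 ± 0.412 CPM (adjusted p = 1.45e-08). Neither passed the test between ACT and KO, where Tead2 stood at 21.2 ± 1.47 CPM and Tead3 at 14.6 ± 0.397 CPM in KO (Tead3 adjusted p = 0.0867). All groups share 1 estimate of the spread, and Tead3 passed without QS replicate 1 (adjusted p = 0.0287) or QS replicate 2 (adjusted p = 0.00795).

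Vgll proteins compete with YAP and TAZ for TEAD. Vgll3 was at 0.62, 1.2 and 0.554 CPM in QS, near the level of 3 reads, and at 191, 170.5 and 182 CPM in ACT (adjusted p = 1.5e-15). It was at 101, 83.4 and 97.1 CPM in KO and 154, 154.5 and 156 CPM in LAC. Like Tead1, Vgll3 was lower in KO than in ACT (-0.94 ± 0.113, adjusted p = 5.66e-06) and higher in LAC than in KO (0.72 ± 0.113, adjusted p = 1.75e-04). Vgll4, a repressor of YAP function, fell on activation from 31.2 ± 2.26 to 12.2 ± 0.866 CPM (adjusted p = 2.58e-07) and stood in KO at 18.3 ± 2.38 CPM (adjusted p = 0.00144 against ACT) and in LAC at 14.6 ± 2.01 CPM. From KO to LAC it missed the threshold (adjusted p = 0.057) and passed it without KO replicate 2 (adjusted p = 0.0406) or LAC replicate 3 (adjusted p = 0.0217).

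Among the target genes, Ccn2 was the most abundant. It encodes connective tissue growth factor, a secreted matricellular protein that promotes fibrosis (chr10:24595442-24598683). Its level was 244, 247 and 277.5 CPM in QS, 1125, 1145 and 1130.0 CPM in ACT, 1522, 1587 and 1574 CPM in KO, and 1716, 1788 and 1757 CPM in LAC. The 4 groups did not overlap and stood in the order QS, ACT, KO, LAC from lowest to highest, as for Yap1. Ccn2 rose 4.42-fold on activation (2.14 ± 0.0425, adjusted p = 8.09e-15), and its KO level exceeded the ACT level 1.38-fold (0.46 ± 0.0425, adjusted p = 3.55e-07).

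Ccn1, its paralog and a secreted integrin ligand (chr3:145646976-145649981), was at 136, 123 and 132 CPM in QS, 411, 413.5 and 430.4 CPM in ACT, 654, 639 and 665 CPM in KO, and 592, 617 and 588 CPM in LAC. Its groups did not overlap either, and KO was the highest. Ccn1 rose 3.21-fold on activation (1.68 ± 0.0393, adjusted p = 5.11e-14) and was 1.56-fold higher in KO than in ACT (0.64 ± 0.0393, adjusted p = 4.11e-09). Per kilobase, the ratio of the Ccn2 level to the Ccn1 level went from 1.6 ± 0.125 in QS to 2.2 ± 0.0611 in ACT, and was 1.94 ± 0.065 for KO and 2.37 ± 0.0428 for LAC (SD, n = 3).

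Of the other CCN family genes, 2 of 4 were in the table. Ccn4 was in QS at 39.5 ± 5.14 CPM, in ACT at 139 ± 3.77 CPM, in KO at 82 ± 7.55 CPM and in LAC at 78.2 ± 4.51 CPM, so that it rose on activation as Ccn2 and Ccn1 did, but fell from ACT to KO (-0.76 ± 0.0881, adjusted p = 4.18e-06). Ccn5 was listed at 0 in every QS library, and stood in ACT at 4.29 ± 0.531 CPM, in KO at 0.934 ± 0.765 CPM and in LAC at 4.77 ± 0.509 CPM.

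Ankrd1 encodes an ankyrin repeat protein of muscle and a much-used reporter of YAP activity (chr19:36111961-36120099). It was at 9.3, 10.1 and 9.81 CPM in QS, 438, 425 and 429.6 CPM in ACT, 311, 315 and 315 CPM in KO, and 300.2, 295 and 303 CPM in LAC. All cultured groups were far above QS, and ACT was the highest. The rise on activation was 44.3-fold (5.33 ± 0.0374, adjusted p = 3.58e-19), and KO was at 72.8% of the ACT level (-0.46 ± 0.0374, adjusted p = 9.86e-08). Ankrd1 thus fell between ACT and KO while Ccn2 and Ccn1 rose.

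Amotl2 and Lats2 are the feedback genes. Amotl2 encodes a junction protein that binds and restrains YAP (chr9:102716672-102733418) and was at 161, 141.5 and 150.0 CPM in QS, 185, 178 and 171 CPM in ACT, 239, 212 and 249.5 CPM in KO, and 235, 229 and 228 CPM in LAC. KO and LAC overlapped above ACT, and ACT lay above QS. Its changes were 0.24 ± 0.0597 from QS to ACT (adjusted p = 0.00239) and 0.39 ± 0.0597 from ACT to KO (adjusted p = 6.46e-05).

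Lats2, the kinase that phosphorylates YAP and TAZ (chr14:57689662-57758388), was at 177, 165 and 177 CPM in QS, 149, 141 and 145 CPM in ACT, 206, 188 and 211 CPM in KO, and 190.0, 187 and 195 CPM in LAC. ACT was the lowest group and KO and LAC overlapped at the top. Lats2 fell by 0.26 on the log2 scale from QS to ACT (SE 0.0475, adjusted p = 2.42e-04) and rose by 0.47 ± 0.0475 from ACT to KO (adjusted p = 8.83e-07).

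**Figure D3:**
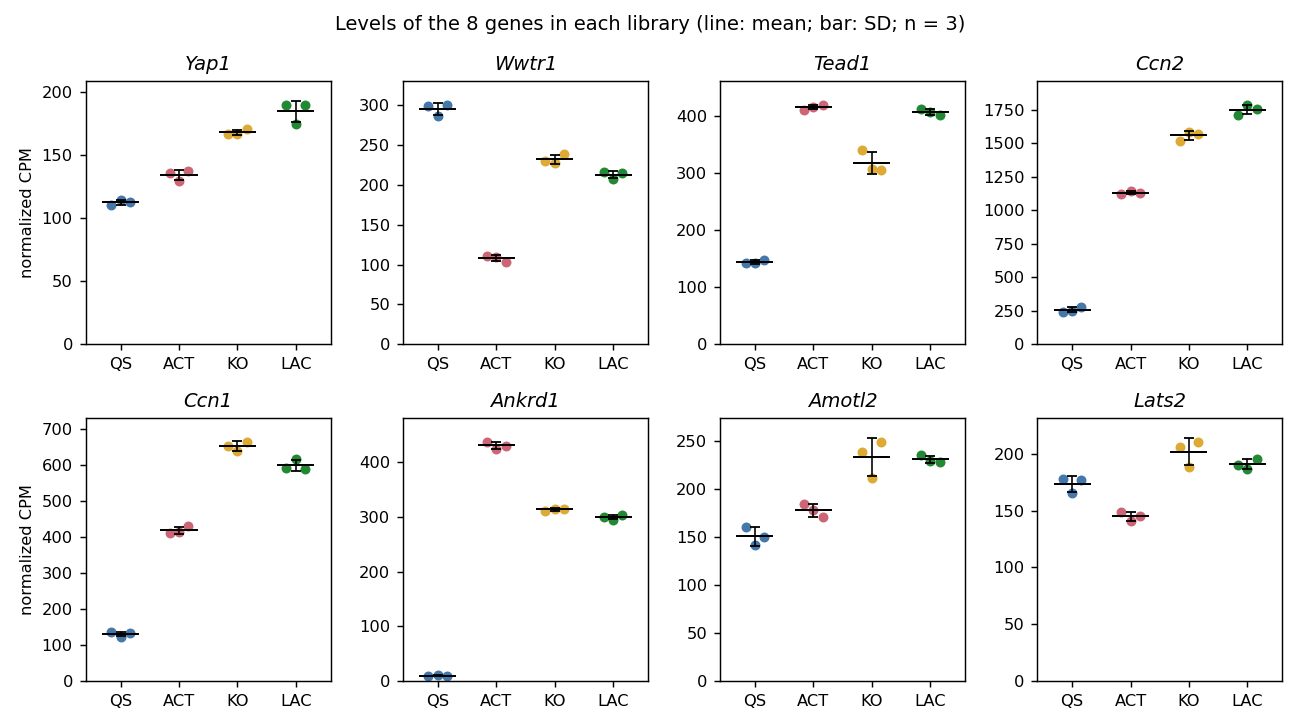
Level of each of the 8 genes (panels) in every library, in normalized CPM on the y axis from 0, by group on the x axis. Points are libraries, the line is the group mean and the bar the SD (n = 3). Wwtr1 and Lats2 are lowest in ACT, Ankrd1 is highest in ACT, and Ccn2 rises through QS, ACT, KO and LAC.

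The first comparison, ACT against QS, sets cultured cells given virus against freshly isolated ones, and "on activation" refers to this step throughout. Stellate cell activation, culture, virus and the differences in markers of other cells cannot be told apart. Of the 8 genes 6 were higher and 2, Wwtr1 and Lats2, lower in ACT, and in 8 of 8 the libraries of the groups did not overlap. The background is wide: 73.5% of all genes were called at an adjusted p under 0.05 (38.0% higher, 35.5% lower) and 76.3% did not overlap, so the count by itself does not set the 8 genes apart. Their sizes did differ from the bulk in places: Ankrd1, Ccn2 and Ccn1 lay above the 90th percentile of all genes' log2 fold changes, 1.57, while Tead1, at 1.52, lay just below it. The median over the 8 genes was 0.89 and that over all genes 0.03. With 3 libraries against 3, the exact two-sided permutation test cannot go below p = 0.10, which 45 of the 48 gene and comparison pairs reached.

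Over all genes, 38.0% rose and 35.5% fell from QS to ACT. Upstream Hippo genes mostly went down on activation: 4 of 22 rose, 13 fell and 5 did not pass, with a median of -0.35. The falls were led by the giant cadherins Dchs1, from 125 to 12 CPM (-3.28, adjusted p = 7.33e-14), and Fat4, from 142 to 22.9 CPM (-2.58, adjusted p = 7.12e-13), which bind each other between cells and act upstream of Hippo signalling. Fat1, another giant cadherin, rose from 11.8 to 667 CPM (5.82, adjusted p = 3.92e-11), and Ajuba, a LATS-binding LIM protein, from 6.0 to 29.0 CPM (2.13, adjusted p = 2.58e-08). Of 16 further YAP and TAZ targets (17 were listed), 10 rose, 4 fell and 2 did not pass, with a median of 0.83. The tissue factor gene F3 rose from 3.37 to 205 CPM (5.57, adjusted p = 1.4e-15), Tgfb2, a TGF-beta ligand, from 3.0 to 62.5 CPM (4.02, adjusted p = 2.69e-12) and Myof, a membrane repair protein, from 116 to 911 CPM (2.97, adjusted p = 4.82e-14).

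SRF with its MRTF coactivators is the other actin-sensing system and shares genes with YAP. All 12 listed genes of SRF, MRTF and contractile targets rose on activation, among them Acta2, the smooth muscle actin of myofibroblasts, from 2.64 to 2656 CPM (9.56, adjusted p = 1.24e-15), and Tagln, an actin-binding protein, from 11.9 to 1286 CPM (6.65, adjusted p = 1.63e-17). Immediate early and dissociation genes, which handling of tissue can induce, fell in 18 of 20 and rose in 2. Hspa1a, a heat shock protein, went from 83.5 to 6.66 CPM (-3.48, adjusted p = 1.09e-11) and Klf2 from 118 to 16.3 CPM (-2.79, adjusted p = 8.49e-12). Ccn1 is itself known as an immediate early gene and rose while these fell. In the same comparison endothelial markers fell in 15 of 15, hepatocyte markers in 11 of 12 and stellate markers in 10 of 12, macrophage markers rose in 9 and fell in 5 of 17, and 3 of 4 portal fibroblast and smooth muscle markers rose; their part was not tested.

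KO against ACT compares cultured cells given Ad-Cre with those given Ad-GFP. Deletion of Hk2, expression of Cre itself and the differences in markers of other cells cannot be told apart. Of the 8 genes 6 were higher and 2, Tead1 and Ankrd1, lower in KO, and 8 of 8 did not overlap, where 62.4% of all genes were called (36.0% higher, 26.3% lower) and 69.2% did not overlap. The largest change was that of Wwtr1, 1.09, which lay above the 90th percentile of all genes, 0.95; the other 7 were inside the range from the 10th to the 90th percentile. The median over the 8 genes was 0.42 and that over all genes 0.07. Macrophage markers fell in 16 of 17 and endothelial markers rose in 15 of 15 between the same groups, hepatocyte markers rose in 12 of 12 and stellate markers rose in 9 and fell in 2 of 12. Mesothelial and biliary markers rose in 3 and fell in 5 of 11. The part of all these marker genes in the changes was not tested.

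Hippo genes upstream of YAP rose in 13 of 22 and fell in 7 from ACT to KO, with a median of 0.38. Over all genes 36.0% rose and 26.3% fell. Dchs1 went from 12 to 98.5 CPM (2.93, adjusted p = 4.91e-13), Fat4 from 22.9 to 84.3 CPM (1.83, adjusted p = 5.56e-11), Amot, a YAP-binding angiomotin like Amotl2, from 45.6 to 117 CPM (1.34, adjusted p = 1.02e-11), and the kinase gene Taok2 from 61.6 to 142 CPM (1.19, adjusted p = 3.81e-08). Further YAP and TAZ targets were divided: 6 of 16 rose, 7 fell and 3 did not pass, with a median of -0.01. Nt5e, the ectoenzyme CD73, rose from 23.3 to 187 CPM (2.96, adjusted p = 8.54e-12) and the stress gene Gadd45a from 18.5 to 60.9 CPM (1.66, adjusted p = 5.6e-12). Myof fell from 911 to 354 CPM (-1.37, adjusted p = 4.75e-10) and Ccdc80, a secreted matrix protein, from 337 to 117 CPM (-1.52, adjusted p = 3.98e-12).

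In the list of SRF, its coactivators Mrtfa and Mrtfb and 9 contractile targets, 0 of 12 genes rose from ACT to KO, 10 fell and 2, Srf and Fhl2, did not pass. Acta2 fell from 2656 to 653 CPM (-2.02, adjusted p = 6.37e-08), Cnn1, the smooth muscle calponin, from 178 to 9.47 CPM (-4.10, adjusted p = 5.44e-12), and Tpm2, a tropomyosin, from 358 to 110.4 CPM (-1.69, adjusted p = 4.33e-12). Portal fibroblast and smooth muscle markers fell in 4 of 4 in the same comparison, with a median of -1.97 (Myh11, smooth muscle myosin, from 166 to 29.6 CPM), and their part was not tested. Srf itself did not pass, with ACT at 38.7 CPM and KO at 43.9 CPM (0.17, adjusted p = 0.221). Ccn2 rose where Acta2 fell, and the ratio of the Ccn2 level to the Acta2 level per kilobase was in ACT 0.349 ± 0.0032, in KO 1.96 ± 0.116 and in LAC 1.0 ± 0.0392 (SD, n = 3). Immediate early genes rose in 14 of 20 and fell in 3; Socs3, a feedback inhibitor of cytokine signalling, went from 7.38 to 36 CPM (2.14, adjusted p = 8.63e-12) and Egr2 from 24.9 to 4.3 CPM (-2.29, adjusted p = 7.47e-09).

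**Figure D4:**
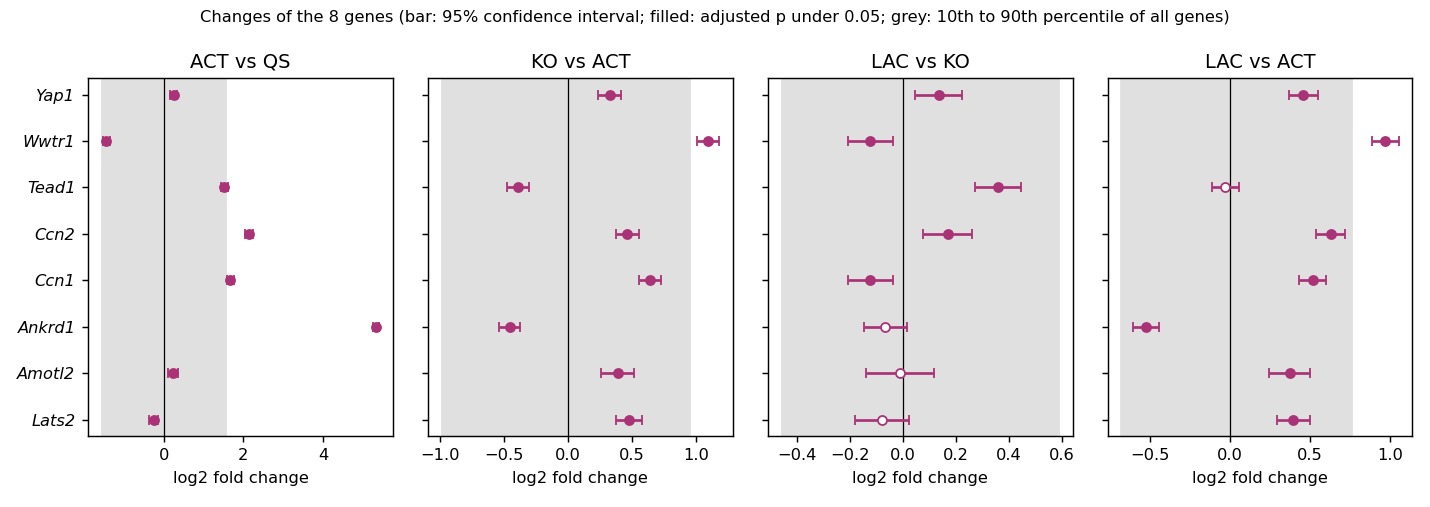
Log2 fold change of each of the 8 genes (rows) in 4 comparisons (panels, each with its own x axis), with 95% confidence intervals. Filled points passed an adjusted p of 0.05 and the grey band runs from the 10th to the 90th percentile of all genes. Ankrd1 lies far to the right on activation, Wwtr1 lies right of the band in KO and LAC against ACT, and all 8 genes lie inside the band between LAC and KO.

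LAC against KO compares Hk2-deleted cells with and without added lactate. Hk2 itself was higher in LAC (18.7 to 19.7 CPM) than in KO (10.7 to 13.7 CPM), and markers of other cells differed. Lactate and these differences between the groups cannot be told apart. Tead1 had the clearest change, rising 1.28-fold (0.36 ± 0.0398, adjusted p = 6.64e-06), and Ccn2 rose 1.12-fold (0.17 ± 0.0425, adjusted p = 0.0061). Yap1 rose by 0.13 ± 0.0415 (adjusted p = 0.019), whereas Wwtr1 fell by 0.12 (SE 0.0391, adjusted p = 0.0214) and Ccn1 fell by 0.12 (SE 0.0393, adjusted p = 0.0218). In all, 3 of 8 rose, 2 fell and 3 did not pass, and 6 of 8 did not overlap, where 41.0% of all genes were called (20.0% higher, 21.0% lower) and 52.2% did not overlap. The intervals (95%) of those that did not pass were -0.15 to 0.01 for Ankrd1, -0.14 to 0.12 for Amotl2 and -0.18 to 0.02 for Lats2. The calls of the small changes depended on single libraries, although the sizes stayed close (Yap1 0.11 to 0.13, Wwtr1 -0.11 to -0.10 and Ccn1 -0.12 to -0.11 where the call was lost). Yap1 no longer passed without KO replicate 2 (adjusted p = 0.052), LAC replicate 1 (0.0784) or LAC replicate 3 (0.0772). Wwtr1 no longer passed without KO replicate 3 (adjusted p = 0.0697) or LAC replicate 2 (0.0862), nor Ccn1 without KO replicate 3 (adjusted p = 0.0633), LAC replicate 1 (0.0683) or LAC replicate 3 (0.0794), while Lats2 passed without KO replicate 2 (adjusted p = 0.043). The rise of Ccn2 turned to -0.05 when all libraries were given the same distribution of values (quantile normalization, adjusted p = 0.42).

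Around them, 5 of 22 upstream Hippo genes rose from KO to LAC, 6 fell and 11 did not pass. Over all genes 20.0% rose and 21.0% fell, so these counts do not set the list apart. The number of upstream Hippo genes that rose was 2 without KO replicate 2, LAC replicate 1 or LAC replicate 3. Dchs1 fell from 98.5 to 49.6 CPM (-0.97, adjusted p = 3.05e-07) and Taok2 from 142 to 93.9 CPM (-0.59, adjusted p = 1.21e-04). Further targets rose in 6 of 16 and fell in 4: F3 went from 136 to 399 CPM (1.55, adjusted p = 1.28e-08), Tgfb2 from 36.2 to 74.2 CPM (1.02, adjusted p = 3.77e-05), Ccdc80 from 117 to 221 CPM (0.91, adjusted p = 4.27e-09) and Myof from 354 to 625 CPM (0.82, adjusted p = 4.08e-07). Of the SRF, MRTF and contractile genes 11 of 12 rose, and Srf did not pass. The rises included Acta2 from 653 to 1434 CPM (1.13, adjusted p = 6.38e-05) and Cnn1 from 9.47 to 81.4 CPM (2.98, adjusted p = 7.62e-10). Immediate early genes rose in 4 of 20 and fell in 9, with Hspa1a going from 30 to 7.4 CPM (-1.89, adjusted p = 6.28e-08). Macrophage markers rose in 14 of 17, 3 of 4 portal fibroblast and smooth muscle markers rose, endothelial markers fell in 14 of 15 and hepatocyte markers in 11 of 12 (median -3.87), and their part was not tested.

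LAC against ACT compares lactate-treated, Hk2-deleted cells with activated controls. Lactate, deletion of Hk2, expression of Cre itself and the differences in markers of other cells cannot be told apart here. Tead1 did not differ beyond its error (-0.03, 95% interval -0.11 to 0.06, adjusted p = 0.596). Of the other 7 genes 6 were higher in LAC and Ankrd1 was lower, at 69.5% of the ACT level (-0.52 ± 0.0374, adjusted p = 3.9e-08), and 7 of 8 did not overlap. Over all genes 49.5% were called (27.8% higher, 21.7% lower) and 62.8% did not overlap. Wwtr1 stood 1.96-fold above ACT (0.97 ± 0.0391, adjusted p = 9.23e-11), Ccn2 1.55-fold (0.63 ± 0.0425, adjusted p = 2.15e-08) and Ccn1 1.43-fold (0.52 ± 0.0393, adjusted p = 7.73e-08). Yap1 (0.46), Lats2 (0.39) and Amotl2 (0.37) were higher as well, with adjusted p from 4.94e-07 to 1.27e-04. The median over the 8 genes was 0.43 and over all genes 0.03. KO against ACT, LAC against KO and LAC against ACT share libraries, so their values for a gene are not independent of each other.

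In LAC against ACT, 12 of 22 upstream Hippo genes were higher, 2 lower and 8 did not pass. Over all genes 27.8% were higher and 21.7% lower. Fat4 was at 96.8 against 22.9 CPM (2.04, adjusted p = 4.47e-11), Dchs1 at 49.6 against 12 CPM (1.96, adjusted p = 9.36e-11) and Amot at 107 against 45.6 CPM (1.22, adjusted p = 7.03e-11). Of 16 further targets 9 were higher and 3 lower, led by Nt5e at 129 against 23.3 CPM (2.43, adjusted p = 1.69e-10), with F3 at 399 against 205 CPM (0.96, adjusted p = 1.1e-06) and Crim1, a membrane protein that binds BMPs, at 461 against 239 CPM (0.95, adjusted p = 7.72e-11). Of the SRF, MRTF and contractile genes 2 of 12, Fhl2 and the coactivator gene Mrtfb, were higher and 6 lower. Acta2 was at 1434 against 2656 CPM (-0.89, adjusted p = 3.35e-04), and Fhl2, a LIM protein, at 71.2 against 41.7 CPM (0.76, adjusted p = 4.79e-06). Immediate early genes were higher in 11 of 20 and lower in 4, with Egr1 at 116 against 48.9 CPM (1.23, adjusted p = 2.42e-11). Macrophage markers were lower in 17 of 17, hepatocyte markers lower in 7 and higher in 1 of 12, portal fibroblast and smooth muscle markers lower in 2 of 4, endothelial markers higher in 15 of 15 and stellate markers higher in 11 of 12, and their part was not tested.

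**Figure D5:**
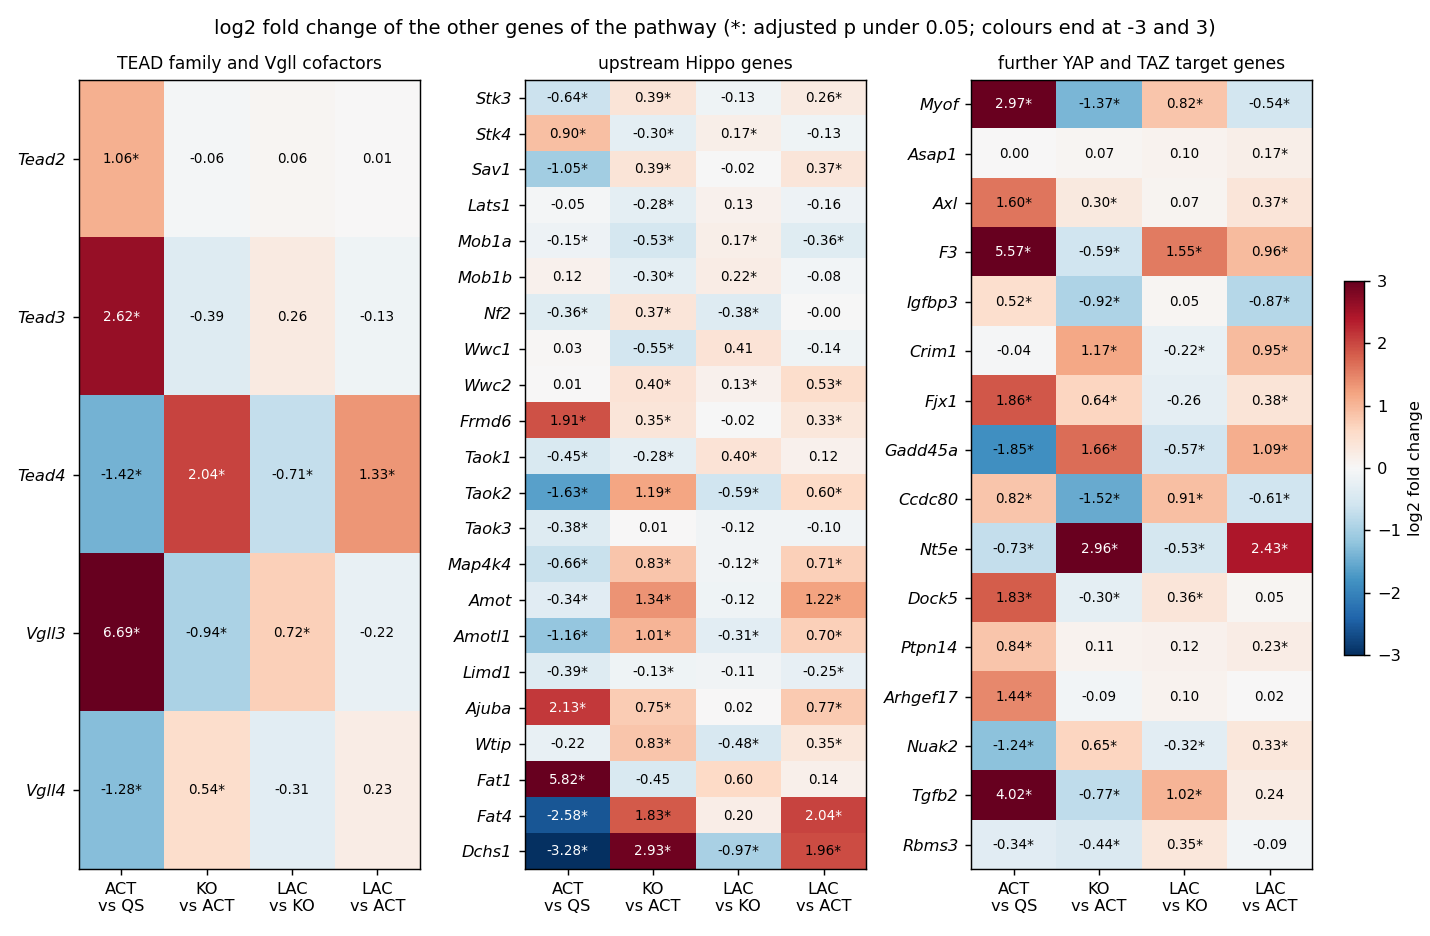
Log2 fold change (colour and printed value) of the TEAD and Vgll genes, the upstream Hippo genes and the further YAP and TAZ targets (rows) in 4 comparisons (columns). An asterisk marks an adjusted p under 0.05 and colours end at -3 and 3. Dchs1 and Fat4 are blue on activation and red in KO against ACT, and F3, Tgfb2 and Myof change from red to blue and back to red over the first 3 columns.

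KO and LAC were also compared with QS. In KO 7 of 8 genes were higher, Wwtr1 was lower and 8 of 8 did not overlap, with 73.0% of all genes called (37.4% higher, 35.7% lower) and 72.5% without overlap. The same 3 counts held in LAC, with 73.6% called (37.4% higher, 36.2% lower) and 74.9% without overlap. Ankrd1 stood 32.2-fold above QS in KO (4.87 ± 0.0374, adjusted p = 2.47e-18) and 30.8-fold in LAC (4.81 ± 0.0374, adjusted p = 1.73e-18). Ccn2 stood 6.09-fold above QS in KO (adjusted p = 2.18e-15) and 6.84-fold in LAC (adjusted p = 9.19e-16). Wwtr1 lay below QS in both, with a log2 fold change of -0.35 in KO (adjusted p = 1.98e-06) and -0.47 in LAC (adjusted p = 7.36e-08), beside -1.44 in ACT. Lats2, lower than QS in ACT, was higher than QS in both. The smallest difference was that of Lats2, 0.22 in KO (adjusted p = 9.14e-04) and 0.14 in LAC (adjusted p = 0.0171), and the latter did not pass without QS replicate 2 (adjusted p = 0.0761) or LAC replicate 3 (adjusted p = 0.0636).

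The genes whose profile over the 12 libraries was most like that of each of the 8 were found by the root mean square (RMS) difference of log2(CPM + 1) after each gene's mean was subtracted, among 10734 genes of at least 5 CPM. For Tead1 they were Plxnb2 (RMS 0.0347), Arhgap10 (0.0695) and 2310022B05Rik (0.0755). Those of Wwtr1 were Marcksl1 (RMS 0.0675), Ces2g (0.0714) and Gja1 (0.0771), and those of Yap1 included Kctd10 (0.0667) and Rlim (0.0677). Ccn2 was nearest to Mybl1 (RMS 0.0849), Tmsb10 (0.116) and Myadm (0.118), and the genes nearest to Ccn1 included Zmat3 (0.0992) and Ckb (0.109). None of the 8 genes was among the 3 nearest of another. Amotl2 was nearest to Usp39 (RMS 0.0761), Ptdss1 (0.0767) and Tpp2 (0.0767), and Lats2 to Pkd2 (0.0585), Tpst1 (0.0601) and Mark3 (0.0614). Ankrd1 had the least close neighbours, Phgdh (RMS 0.184), Aif1l (0.248) and Map6 (0.328).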

How the data were processed

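RNA of 12 libraries (4 groups of 3) was sequenced from a stranded mRNA kit, per the labels' protocols; groups and replicate numbers are those in the sample titles. The authors deposited normalized CPM for 12081 genes. Since totals range from 959232 to 1047042 between libraries, the deposited values were handled as a signal with some further scaling per library. The submitters' processing notes name FastQC 0.11.8, cutadapt 1.18, edgeR 3.8, kallisto 0.44.0 and build mm10; their roles and order are not given in the sources used here. Every listed gene reaches 1 CPM in 3 or more libraries. Only 19.3% to 25.7% of the positive values lay within 0.01 of a whole read, so no count test was run, and depth was estimated from the value of 1 read. A change in RNA content of the whole cell is invisible on this scale.

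Fits used limma 3.58.1 (R 4.3.3) on log2 of CPM with a pseudocount of 1, with a mean per group over all 12 libraries, 8 residual degrees of freedom, moderation along the intensity trend, and Benjamini-Hochberg adjustment over all genes in each of 6 comparisons. Calls were made below an adjusted p of 0.05. On simulated data for ACT against QS (11662 genes), 56% of genes changed 1.25-fold, 86% at 1.5-fold, 94% at 2-fold and 100% at 4-fold were recovered, and 10 of 11462 unchanged genes were called. Each fold size had 50 changed genes, and all genes had the same spread beyond counting noise. In the deposited data 73.5% of genes were called in this comparison, so these rates need not hold there. Named genes were the 8 genes, the TEAD, Vgll and CCN families, some genes fixed by name, up to 4 called genes per list and comparison with the largest change and at least 5 CPM, the 2 most abundant markers per marker list and the 3 nearest profiles per gene; the text gives part of these, and some nearest profiles are not reported here. The 8 genes and all lists were chosen with earlier results of these data known. Gene positions and lengths came from GENCODE M21 and promoters from RefSeq (GRCm38.p6). Alternatives were other pseudocounts, filters, scalings, moderation, weights, thresholds, a replicate block, fewer groups in the fit and leaving out each library.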

Additional observations from a re-analysis of the deposited data

How the results depend on the processing

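Over 25 alternatives, 1178 of 1200 fold changes of the 8 genes kept their side of the threshold and, where called, their direction, 19 no longer passed it, 2 newly passed it and 1 called change turned: Ccn2 in LAC against KO, -0.0504 under quantile normalization (range over alternatives -0.0504 to 0.18). Amotl2 in LAC against KO, called in none, ran from -0.08 to 0.04. Most lost calls were in LAC against KO, where 2 of the 8 genes were lower: the number was 0 without the intensity trend, 0 at an adjusted p under 0.01, and 0 to 3 when single libraries were left out (0 without KO replicate 3, 1 without each LAC replicate). Over all genes, 1681 were lower there at an adjusted p under 0.01, against 2542. In LAC against ACT, 2 of the 8 genes were lower under quantile normalization, against 1 (Tead1, -0.10, adjusted p = 0.0475). Lats2 in LAC against QS did not pass when scaled outside marker and mitochondrial genes (adjusted p = 0.0927), nor did Yap1 in LAC against KO (adjusted p = 0.0595). The TEAD and Vgll genes lower in KO against ACT were 2 with a pseudocount of 5, with only the 2 groups in the fit and with library weights, and 1 to 2 with single libraries left out, against 1. Under the same 3 settings the number lower in LAC against ACT was 1, and 0 to 1 with single libraries left out, against 0. Those lower in LAC against KO were 2 with equal totals, quantile normalization and equal totals outside marker and mitochondrial genes, and 1 to 2 with single libraries left out, against 1. Of the upstream Hippo genes in LAC against KO, 5 were higher, and 3 with equal totals, 3 with equal totals outside marker and mitochondrial genes, 1 at an adjusted p under 0.01 and 2 to 6 with single libraries left out. In LAC against ACT 2 were lower, and 5 under quantile normalization or library weights. The causes of these shifts were not tested. With the replicate number as a block, the 8 genes gave 6 higher and 2 lower in KO against ACT and 3 higher and 2 lower in LAC against KO, as without it, and no call of the 8 genes changed. Same-numbered libraries correlated at -0.04 to 0.10 and libraries of different numbers at -0.09 to 0.08, and 4 of 12 correlated best with their own number. Whether same-numbered libraries share an animal or culture cannot be decided from these values, and the labels do not say. Among the 8 genes depth limits Ankrd1 in QS most, and several other genes near the level of 3 reads in QS, such as Vgll3 and Cnn1, are limited more.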
